A study of Mus musculus with 18 samples.

Results

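The comparison set the midbrain of saline-treated mice against their striatum, with 3 arrays for each region, 6 of the 18 arrays of the series. The mice were C57BL/6J males 14 weeks old, and both groups had received saline by intraperitoneal injection. The saline mice were the controls of an experiment on MPTP, a toxin of dopamine neurons, and no array from an MPTP-treated mouse entered the comparison. The labels name no engineered allele and give the dissected regions only as midbrain and striatum, so that the midbrain arrays hold the RNA of all nuclei of the dissected block. The titles number the arrays as biological replicates, and the protocol names 3 saline mice from which the regions were dissected, but which arrays of both regions share a mouse is not stated. Members were the array columns whose titles read midbrain control or striatum control. Of several probe sets for a gene, the one brightest on average across the 18 arrays stood for it.

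The midbrain holds the cell bodies of the dopamine neurons of the substantia nigra and ventral tegmental area, whose axons end in the striatum. Most transcripts stay near the cell body, so that dopamine is released in one region by cells whose RNA lies in the other. The striatum is made up mainly of GABAergic spiny projection neurons. Those of the direct pathway carry the dopamine receptor Drd1 and the peptides substance P and dynorphin, and those of the indirect pathway carry Drd2 and enkephalin. The midbrain also holds glutamatergic and GABAergic neurons of the colliculi and tegmentum and serotonergic neurons of the raphe.

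Promoter windows of Th, Slc6a3, Slc18a2, Ddc, Gpr6, Drd1 and Drd2 were searched for motifs. The 4 windows shown are those that held a match. Th, Slc18a2 and Ddc make or store dopamine and were higher in midbrain, and the orphan receptor Gpr6 was among the genes lowest in midbrain against striatum. Each window is taken from RefSeq on GRCm38.p6 and runs from 250 bases before to 50 bases after the annotated start, on the strand of the gene and 5′ to 3′. Capitals mark a match to either of the motifs searched on both strands. These were AAAGGTCA or its reverse complement TGACCTTT, which receptors of the NR4A family bind, and TGACGTCA, the cAMP response element, which is its own reverse complement. The second motif was added after the promoter table had been seen.
Th: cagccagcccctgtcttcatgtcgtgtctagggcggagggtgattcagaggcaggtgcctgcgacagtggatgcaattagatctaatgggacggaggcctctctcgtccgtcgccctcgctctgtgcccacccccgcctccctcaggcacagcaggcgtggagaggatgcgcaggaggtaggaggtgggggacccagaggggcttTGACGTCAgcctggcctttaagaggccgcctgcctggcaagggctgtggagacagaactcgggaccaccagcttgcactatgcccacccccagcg
Slc18a2: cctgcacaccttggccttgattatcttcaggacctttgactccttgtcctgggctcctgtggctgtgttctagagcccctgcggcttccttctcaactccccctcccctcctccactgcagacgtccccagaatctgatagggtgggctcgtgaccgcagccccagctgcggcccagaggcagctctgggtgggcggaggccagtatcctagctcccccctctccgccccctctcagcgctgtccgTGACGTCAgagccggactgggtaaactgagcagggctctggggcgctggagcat
Ddc: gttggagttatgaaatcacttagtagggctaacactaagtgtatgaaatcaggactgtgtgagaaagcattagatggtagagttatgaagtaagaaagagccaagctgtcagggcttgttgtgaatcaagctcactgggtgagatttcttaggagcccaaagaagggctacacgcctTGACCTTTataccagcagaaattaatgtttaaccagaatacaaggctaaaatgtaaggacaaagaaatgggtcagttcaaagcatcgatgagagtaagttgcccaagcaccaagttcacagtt
Gpr6: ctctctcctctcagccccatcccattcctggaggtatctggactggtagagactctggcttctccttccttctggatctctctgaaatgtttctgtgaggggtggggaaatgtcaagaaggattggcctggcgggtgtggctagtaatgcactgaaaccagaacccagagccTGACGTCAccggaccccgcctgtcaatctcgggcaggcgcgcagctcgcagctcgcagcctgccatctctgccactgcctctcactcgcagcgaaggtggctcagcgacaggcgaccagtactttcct
The Th window lies at chr7:142899946-142900245 on the minus strand, with its match from position -45 relative to the start. The Slc18a2 window lies at chr19:59260628-59260927 on the plus strand, with its match from position -4. The Ddc window, 1 of 2 in the table for this gene, lies at chr11:11898095-11898394 on the minus strand, and its TGACCTTT began at position -73. The Gpr6 window lies at chr10:41072241-41072540 on the minus strand, with its match from position -78. The windows of Slc6a3, Drd1 and Drd2 and the other Ddc window held neither motif. Of the 32851 promoter windows searched, 588 held TGACGTCA (1.79%) and 495 held AAAGGTCA on either strand (1.51%). A match is a run of letters and not a measured binding site.

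The arrays read log2 expression, in which a step of 1 is a doubling of signal. Array medians lay between 5.16 and 5.21, and arrays of 1 region correlated at 0.991 to 0.994 in midbrain and at 0.996 in striatum over all probe sets. Between the regions the correlation was 0.961 to 0.965. Midbrain replicate 2 had the lowest interquartile range, 3.37, against 3.40 to 3.61 on the other arrays. Midbrain samples varied more than striatum samples, with a median SD over the tested genes of 0.157 against 0.0889. For each array, tested genes were counted that lay more than 1 log2 unit from the mean of the other 2 arrays of its group. Of 11622 genes, 51 did so on midbrain replicate 1 and 44 on midbrain replicate 2, against 4 to 15 on each other array. Midbrain replicate 1 was high for the thalamus-enriched kinase gene Prkcd, at 9.40 against 7.07 and 7.02, and for the hypothalamic peptide gene Pmch, at 7.48 against 5.64 and 5.49. The same array was low for the glycine transporter gene Slc6a5, at 4.72 against 7.55 and 7.97, and for the serotonin synthesis gene Tph2, at 4.59 against 5.87 and 6.45. The Purkinje cell gene Pcp2 read 4.07, 6.27 and 8.61 on the midbrain arrays, so that each of them stood apart from the others. Striatum replicate 2 was high for genes of skeletal muscle, Acta1 at 8.76 against 6.53 and 6.79, and Ckm at 6.56 against 4.67 and 4.75. These genes were chosen after their values were seen, and results that rest on them are given below with and without the array.

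**Figure D1:**
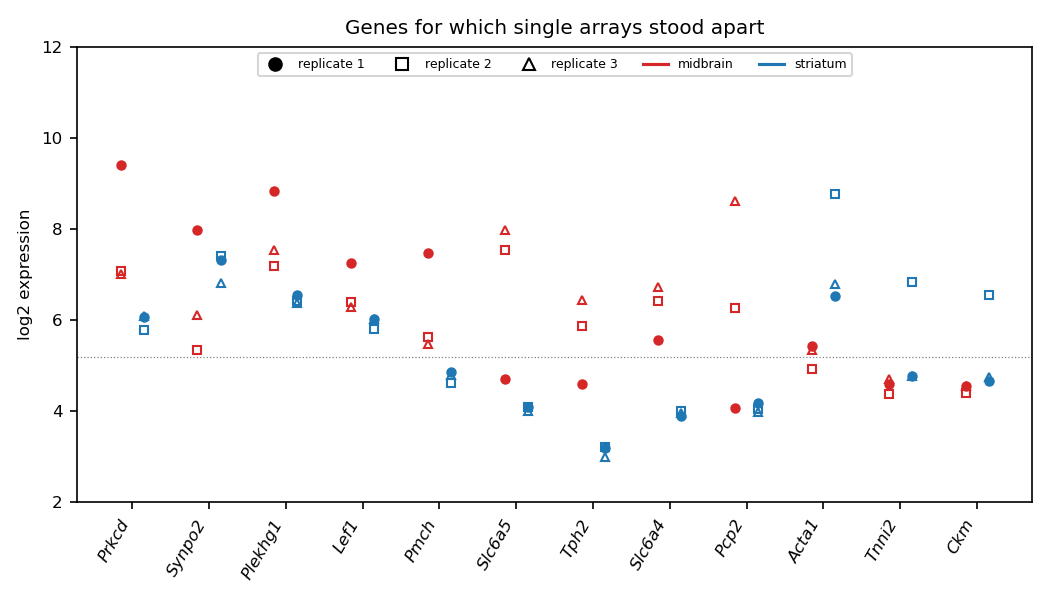
Log2 expression of 12 genes on each of the 6 saline arrays, midbrain in red and striatum in blue, with a symbol for each replicate number and a dotted line at the filter value of 5.19. Midbrain replicate 1 lies above the other midbrain arrays for Prkcd, Synpo2, Plekhg1, Lef1 and Pmch and below them for Slc6a5, Tph2 and Slc6a4, and striatum replicate 2 lies above the other striatum arrays for Acta1, Tnni2 and Ckm.

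The first question was how far the expression of the regions differs in the absence of toxin. A gene was tested where its mean in at least 1 of the regions reached the median of all values, 5.19, which left 11622 of 18194 genes. Differences are given as midbrain minus striatum, with the standard error (SE) of limma's moderated fit, and a gene was called at an adjusted p under 0.05 after Benjamini-Hochberg adjustment over all tested genes. By that rule 6193 genes differed (53.3%), 3574 higher in midbrain (30.8%) and 2619 lower (22.5%). The groups of arrays did not overlap for 59.9% of the tested genes. Most differences were small, with quartiles of -0.25 and 0.37 and a median of 0.05, and the median size in either direction was 1.24-fold. At 2-fold or more 698 called genes were higher in midbrain (6.01%) and 730 lower (6.28%). The largest differences ran towards striatum. By measured means, 84 called genes were 8-fold or more lower in midbrain (0.723%) and 25 were 8-fold or more higher (0.215%). At 16-fold or more the called genes were 25 lower (0.215%) and 7 higher (0.0602%). Where all 3 arrays of a region read below 5.19, low signal may hide a larger difference, and only a lower limit is given, as "at least", set by the distance of the brighter mean from 5.19. Values given with ± are means with the SD over 3 arrays. A gene dim in one region and bright in the other passed the filter only through the bright one and had to differ, so that counts for lists rich in such genes are in part set by the filter. Each count of list members is to be read beside the shares over all tested genes. In dissected tissue, fewer cells of a type and less RNA per cell cannot be told apart.

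**Figure D2:**
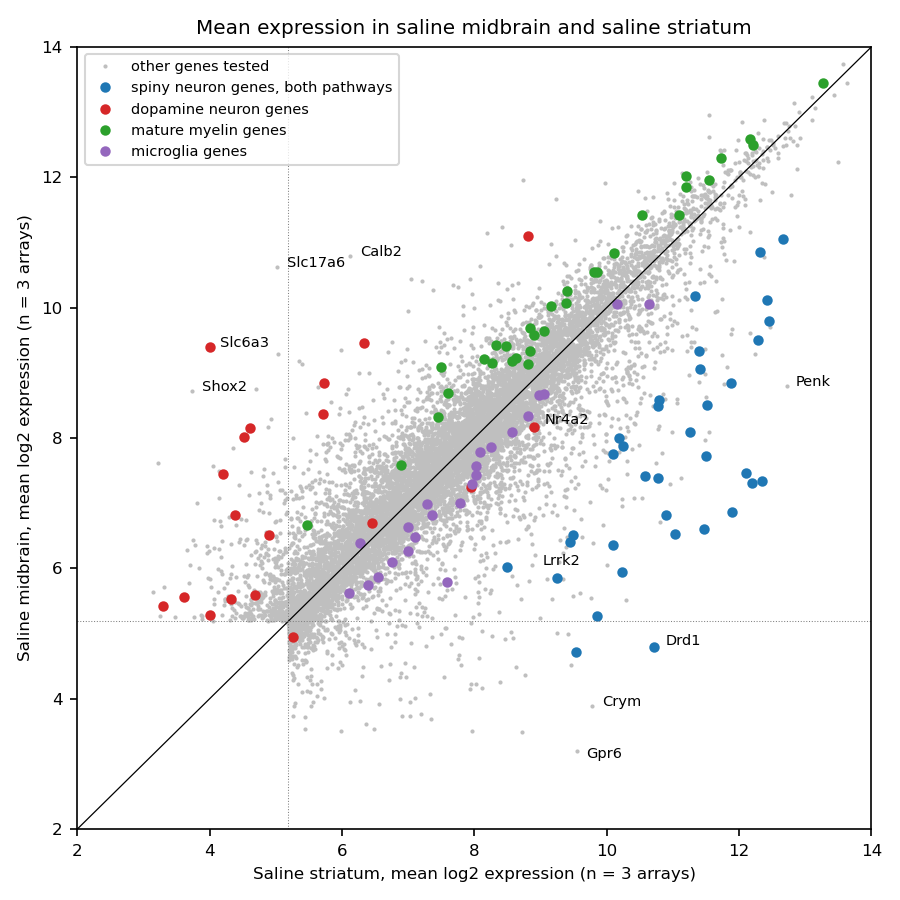
Mean log2 expression of each tested gene in saline striatum (horizontal axis) and saline midbrain (vertical axis), 3 arrays each, with the line of equal expression and dotted lines at the filter value of 5.19. The spiny neuron genes (blue) all lie below the line, the mature myelin genes (green) above it, and most dopamine neuron genes (red) above it, with Nr4a2 below.

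The 20 called genes of largest difference in each direction were led by neuronal genes. Higher in midbrain stood Slc17a6, the vesicular glutamate transporter of subcortical neurons, at 10.92, 10.43 and 10.54 in midbrain against 5.34, 4.73 and 5.01 in striatum. The groups were far apart, by 5.61 (SE 0.14), 48.7-fold, with an adjusted p of 1.43e-23. It was followed by the dopamine transporter gene Slc6a3, the homeobox gene Shox2, the calcium-binding protein gene Calb2, the developmental gene Mab21l1 and the peptide gene Cartpt. Cd83 (13.4-fold), Patj (14.2-fold), Igsf1 (at least 5.18-fold) and Btbd11 (10.4-fold) also belonged to the 20, as did Agt (10.6-fold), Sncg (at least 7.12-fold), Cbln2 (10.3-fold), Vamp1 (9.41-fold), Kcng4 (at least 4.94-fold), Adcy8 (at least 7.89-fold), Ebf3 (at least 4.76-fold), Slc6a11 (9.18-fold), Slc18a2 (at least 7.79-fold) and Glra3 (at least 3.5-fold). Lower in midbrain stood Gpr6, a constitutively active receptor of indirect-pathway neurons, at 3.35, 3.15 and 3.10 in midbrain against 9.64, 9.49 and 9.50 in striatum, at least 20.5-fold, with an adjusted p of 9.77e-25. Behind it came Drd1 (62.5-fold), Ankrd63 (at least 45.9-fold), Crym (at least 24.045-fold), Ido1 (at least 11.5-fold), Ddn (32.5-fold), Arpp21 (32.1-fold), Egr3 (at least 19.2-fold), Ppp1r1b (29.7-fold) and Rgs9 (29.3-fold). The other 10 were Actn2 (at least 20.3-fold), Lrrc10b (27.3-fold), Pde10a (25.1-fold), Itpka (24.2-fold), Gng7 (22.8-fold), Dmkn (at least 6.86-fold), Tiam2 (21.4-fold), Rin1 (at least 11.9-fold), Rxrg (19.6-fold) and Kcnj4 (18.8-fold). Of the 20 genes lower in midbrain 12 belonged to the lists of spiny neuron genes, and of the 20 higher ones 4 belonged to the dopamine neuron list. Of these 40 genes 39 were tested under all 19 alternatives and kept their call in each, and Glra3 was below the filter at the 75th percentile and kept its call in the other 18. Averaging all probe sets of a gene in place of the brightest moved 8 differences by over 1.5 times, to 1.91 for Patj, 1.38 for Igsf1, -2.42 for Arpp21, -2.79 for Egr3, -3.20 for Rgs9, 1.57 for Slc6a11, 1.88 for Glra3 and -2.29 for Tiam2.

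Genes of dopamine synthesis, storage and uptake were higher in midbrain. Tyrosine hydroxylase, Th, the rate-limiting enzyme of dopamine synthesis, read 8.97, 8.92 and 8.64 in midbrain and 5.94, 5.73 and 5.51 in striatum. All 3 striatum arrays lay above the filter value, and the difference was 3.12 (SE 0.13), 8.69-fold, with an adjusted p of 3.61e-18. Ddc, the decarboxylase that completes the synthesis, read 9.67, 9.43 and 9.27 against 6.36, 6.44 and 6.19, 8.73-fold higher in midbrain. The dopamine transporter gene Slc6a3 read 9.67, 9.38 and 9.15 against 4.32, 3.70 and 4.01. Its striatum arrays were all below the filter value, which leaves a difference of at least 18.5-fold, with an adjusted p of 2.03e-22. Slc18a2, which loads monoamines into vesicles, read 8.39, 8.13 and 7.94 against 4.40, 4.98 and 4.45, at least 7.79-fold. Gch1, which makes the cofactor of tyrosine hydroxylase, was near the filter value in midbrain, at 5.02, 5.37 and 5.45, and below it in striatum, at 4.07, 4.07 and 3.86. Averaged over its probe sets, Ddc differed by 1.70.

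Other dopamine neuron genes ranged more widely. Aldh1a1, an aldehyde dehydrogenase of ventral nigral neurons, was bright in both regions and 4.88-fold higher in midbrain (11.10 ± 0.08 against 8.82 ± 0.13, SD, n = 3). The synuclein gene Sncg read 8.06, 8.05 and 7.96 against 4.66, 4.52 and 4.39, at least 7.12-fold. Ret, the receptor that signals for GDNF, read 6.90, 6.79 and 6.77 against 4.56, 4.13 and 4.47, at least 3.09-fold. The transcription factor gene Ebf3 was at least 4.76-fold higher, and Dlk1, a Notch-family ligand, was 6.32-fold higher. The nicotinic receptor gene Chrna6 read 6.68, 6.69 and 6.17 against 5.28, 4.63 and 4.78, 3.07-fold higher in midbrain. Foxa1, Otx2 and En2, which specify midbrain neurons, were all close to the filter value in midbrain, at 5.55 ± 0.67, 5.42 ± 0.27 and 5.53 ± 0.04, and below it in striatum. Nr4a2, which maintains the dopaminergic phenotype, went the other way: it read 8.49, 8.05 and 7.96 in midbrain and 8.93, 8.77 and 9.02 in striatum, lower in midbrain by 1.67-fold with an adjusted p of 1.09e-05. The cadherin gene Cdh8 was also lower in midbrain, 1.63-fold. Pitx3, a defining regulator of these neurons, read 4.37, 4.35 and 4.22 against 4.30, 4.18 and 4.27, below the filter value on every array, and it was not tested. Of 19 members tested 15 were higher in midbrain, 2 were lower and 2, Sox6 and Lmx1b, did not pass. The higher share was 78.9% and the lower 10.5%, against 30.8% and 22.5% of all tested genes. Another 7 of the 26 on the array were below the filter in both regions. Of the 19, 11 passed the filter only through midbrain and 1 only through striatum, and of the 7 bright in both regions 4 were higher and 2 lower. These lists were drawn from what is known of the regions, and their direction is in part given by that choice.

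**Figure D3:**
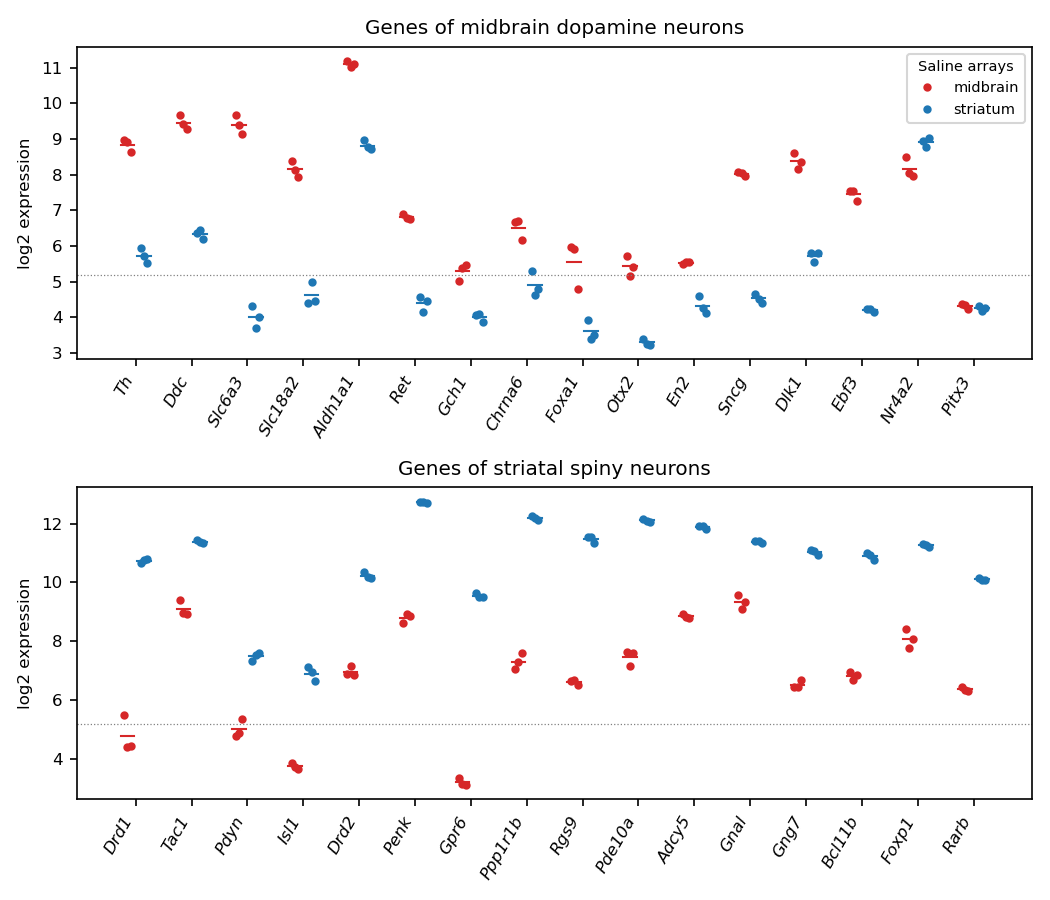
Log2 expression of 16 dopamine neuron genes (upper panel) and 16 spiny neuron genes (lower panel) on each of the 3 saline midbrain arrays (red) and 3 saline striatum arrays (blue), with horizontal bars at the group means and a dotted line at the filter value of 5.19. Th, Slc6a3 and Slc18a2 are higher on all midbrain arrays, Nr4a2 is lower on them, Pitx3 lies below the line in both regions, and every gene of the lower panel is higher on all striatum arrays.

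All 35 tested genes of spiny neurons of both pathways were lower in midbrain, each by at least 2-fold, with a median difference of -3.03 against 0.05 over all tested genes. Ppp1r1b, which encodes DARPP-32, the phosphatase inhibitor that integrates dopamine signals, read 7.04, 7.28 and 7.59 in midbrain and 12.27, 12.21 and 12.12 in striatum. The difference was -4.89 (SE 0.11), 29.7-fold, with an adjusted p of 1.94e-24. Rgs9, which ends G protein signals in these cells, read 6.64, 6.66 and 6.50 against 11.54, 11.53 and 11.34. Pde10a, the phosphodiesterase that degrades cyclic nucleotides in spiny neurons, read 7.65, 7.14 and 7.59 against 12.18, 12.09 and 12.06, 25.1-fold. Neither group of arrays came near the other for these genes, and all of them were above the filter value in midbrain too. Adcy5, the main striatal adenylyl cyclase, and Gnal, its stimulating G protein, were 8.17-fold and 4.14-fold lower in midbrain. Other wide gaps were those of Ankrd63 (at least 45.9-fold), Ddn (32.5-fold), Arpp21 (32.1-fold) and Actn2 (at least 20.3-fold). In saline frontal cortex Ddn averaged 11.66, Arpp21 10.34 and Ankrd63 7.88, so that these genes are not confined to striatum. Actn2 averaged 6.14 there, Ppp1r1b 8.15, Rgs9 6.64 and Pde10a 7.99. Ddn and Actn2 encode proteins of dendrites and spines, and all midbrain arrays were below the filter value for Ankrd63 and Actn2. Transcription factor genes of these neurons followed, with Bcl11b (16.8-fold), Rarb (13.4-fold), Rxrg (19.6-fold), Foxp1 (9.03-fold) and Meis2 (4.88-fold). The smallest differences belonged to Id4 (2.25-fold), Prkcb (2.77-fold) and Ppp3ca (3.07-fold), which other brain cells also express. Averaged over its probe sets Adcy5 differed by -0.89 and Rasgrp2 by -1.45, both still called.

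Among genes of the direct pathway Drd1 had the widest measured gap. Its probe set read 5.47, 4.41 and 4.44 in midbrain, above the filter value on 1 array, and 10.67, 10.77 and 10.78 in striatum, 62.5-fold lower in midbrain with an adjusted p of 3.91e-22. Isl1, a transcription factor gene of these cells, read 3.85, 3.73 and 3.64 against 7.12, 6.95 and 6.63, at least 3.27-fold. Slc35d3, which acts in the traffic of the D1 receptor, was at least 6.7-fold lower. Tac1, the precursor of substance P, was less one-sided, at 9.40, 8.95 and 8.92 against 11.43, 11.38 and 11.33, 4.89-fold. Pdyn, the dynorphin precursor, read 4.77, 4.86 and 5.36 against 7.34, 7.53 and 7.61, 5.63-fold lower in midbrain. Eya1 (1.85-fold) and Sfxn1 (1.51-fold) were lower by less, and Ebf1 read 6.90 ± 0.10 against 6.67 ± 0.06 without passing. Chrm4 did not reach the filter value in either region. With all probe sets averaged Tac1 differed by -1.26.

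Genes of the indirect pathway split. Drd2, the receptor that dopamine neurons carry as well, read 6.89, 7.14 and 6.84 in midbrain and 10.36, 10.20 and 10.15 in striatum, 9.72-fold lower in midbrain. Penk, the enkephalin precursor, was bright in both regions at 8.63, 8.92 and 8.86 against 12.75, 12.73 and 12.72, 15.3-fold, with an adjusted p of 2.41e-24. The kainate receptor gene Grik3 was at least 1.5-fold lower. Nell1 was 2.05-fold higher in midbrain, and Plxdc1 read 7.003 ± 0.14 against 6.9997 ± 0.10 without passing. Ptprm, at 0.28, was called higher but lost its call without any 1 of 5 of the 6 arrays, the exception being midbrain replicate 2, with values of 0.18 without midbrain replicate 1, 0.29 without midbrain replicate 3 and 0.24, 0.33 and 0.27 without striatum replicates 1, 2 and 3. Averaged over its probe sets Nell1 differed by 0.62 and Grik3 by -0.73. Adora2a, Gpr52 and Sp9 had no probe set that named them alone and were not analysed here.

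Of 60 tested genes of cAMP and G protein signalling, the route by which dopamine receptors act, 31 were lower in midbrain and 20 higher, against shares of 22.5% lower and 30.8% higher over all tested genes, so that the share of higher members (33.3%) was near the background. Each family had members on both sides. Of the adenylyl cyclases, Adcy5 (8.17-fold), Adcy1 (1.46-fold), Adcy3 (1.41-fold) and Adcy9 (1.32-fold) were lower in midbrain. Adcy8 (at least 7.89-fold), Adcy7 (at least 3.8-fold), Adcy6 (1.62-fold) and Adcy2 (1.48-fold) were higher. Adcy8, a calcium-stimulated cyclase, read 8.41, 7.80 and 8.30 against 4.47, 5.15 and 5.03, and Adcy7 read 7.43, 7.09 and 6.83 against 4.44, 4.57 and 4.78, so that neither overlapped between the regions. Phosphodiesterases were mostly lower, led by Pde10a (25.1-fold), Pde7b (8.07-fold), Pde1b (6.93-fold) and Pde2a (6.8-fold), while Pde4d (1.81-fold) was higher. The G protein subunits Gnal and Gnas, which stimulate the same enzyme, were opposed: Gnal read 9.34 ± 0.23 against 11.39 ± 0.03, and Gnas 12.62 ± 0.10 against 11.55 ± 0.17 (SD, n = 3). Gng7, the partner of Gnal in striatum, read 6.44, 6.46 and 6.67 against 11.11, 11.05 and 10.95, 22.8-fold lower, and Gng2 (2.36-fold) and Gng4 (2.03-fold) were higher. Regulators of G protein signalling lower in midbrain included Rgs9 (29.3-fold), Rgs14 (10.6-fold), Rgs4 (5.88-fold), Rgs20 (4.72-fold) and Rgs2 (2.93-fold). Rgs16 (at least 2.57-fold), Rgs17 (2.002-fold) and Rgs3 (1.74-fold) were higher. Rgs16 was highest on midbrain replicate 1 (7.51, 5.96 and 6.20), and without that array its difference was 1.23 in place of 1.70. The regulatory subunits of protein kinase A were split too, with Prkar2b (2.76-fold) lower and Prkar2a (1.87-fold) and Prkar1b (1.35-fold) higher. Averaging probe sets moved Adcy5 to -0.89, Rgs9 to -3.20, Rgs20 to -1.43 and Gnb5 to -0.87.

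Genes of excitatory neurons of midbrain and thalamus were mostly higher in midbrain, 13 of 15 tested, with 1 lower. The shares were 86.7% and 6.67%, against 30.8% and 22.5% of all tested genes. Of the 9 members above the filter value in both regions 8 were higher and 0 lower. Shox2, a homeobox gene of tectal and thalamic neurons, read 9.10, 8.48 and 8.58 against 3.80, 3.65 and 3.77, at least 11.5-fold. Calb2, which encodes calretinin, read 10.998, 10.64 and 10.74 against 6.20, 5.99 and 6.19, 25.4-fold. The synaptic organiser genes Cbln2 (10.3-fold), Cbln1 (8.84-fold) and Cbln4 (at least 4.9-fold) were higher together, and so were Lhx9 (2.54-fold), Ntng1 (2.42-fold) and Rora (2.4-fold). Tcf7l2, a transcription factor gene with strong thalamic expression, read 6.23, 6.96 and 6.37 against 5.08, 4.64 and 4.89, at least 2.51-fold, and differed by 2.85 with all its probe sets averaged. Nptx2, a neuronal pentraxin gene, was lower in midbrain, 1.89-fold. For several of the genes that mark thalamus midbrain replicate 1 stood above both other midbrain arrays. Without it Prkcd differed by 1.06 in place of 1.85, Plekhg1 by 0.91 in place of 1.41, and Lef1 by 0.40 in place of 0.70, and all 3 kept their call. Synpo2 read 7.99, 5.34 and 6.11 in midbrain and 7.33, 7.40 and 6.83 in striatum. It was not called with all arrays (adjusted p 0.0681), and without midbrain replicate 1 it was lower in midbrain by -1.46 (adjusted p 7.92e-09). With robust estimation of the prior variance Prkcd and Plekhg1 lost their calls (adjusted p 0.128 and 0.0849). The list averaged 6.39 to 6.98 on the midbrain arrays and 4.90 to 5.03 on the striatum arrays. The part of thalamic tissue in these values was not tested.

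Transcription factor genes of GABAergic midbrain neurons were higher in midbrain in 15 of 20 tested, and 3 were lower. Of the 20, 9 passed the filter only through midbrain, and of the 11 above it in both regions 6 were higher and 3 lower (30.8% and 22.5% of all tested genes). With the filter at the 75th percentile 4 were higher and 0 lower. Mab21l1 read 7.44, 7.56 and 7.87 against 3.22, 3.28 and 3.15, at least 5.39-fold. Gata3 and Tal1, which set the GABAergic fate in the midbrain, read 6.26, 6.53 and 6.50 against 3.69, 3.67 and 3.89 and 6.48, 6.29 and 6.50 against 4.25, 4.25 and 4.06. Irx1, Irx2 and Irx3, homeobox genes of early brain patterning, were at least 1.83-fold, 3.69-fold and 2.24-fold higher. Tfap2d (at least 3.89-fold), Zfpm2 (4.88-fold) and Zic1 (2.89-fold) were higher as well. The exceptions lower in midbrain were Pou3f4 (2.26-fold), Zfpm1 (1.66-fold) and Meis1 (1.64-fold). Sall1 and Sall3 read 6.39 ± 0.20 against 6.28 ± 0.16 and 6.14 ± 0.07 against 6.10 ± 0.03 and did not pass. Another 13 members were below the filter in both regions.

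Forebrain transcription factor genes leaned to striatum, with 15 of 23 tested lower in midbrain (65.2%, against 22.5% of all tested genes). The 7 higher ones (30.4%) were near the 30.8% of all tested genes. Of the 23, 5 passed the filter only through striatum, and of the 18 above it in both regions 10 were lower and 7 higher. The Dlx genes, which specify forebrain GABAergic neurons, were below the filter value on all midbrain arrays. Dlx5 read 4.36, 4.37 and 4.27 against 7.47, 7.71 and 7.44, at least 5.09-fold, and Dlx1 (at least 2.02-fold) followed. Lhx6 and Lhx8, which direct interneurons of the ventral forebrain, read 4.03, 4.40 and 4.44 against 6.72, 6.74 and 6.67 and 3.69, 3.51 and 3.62 against 6.25, 6.54 and 6.31. Other genes lower in midbrain were Klf16 (5.35-fold), Pou3f1 (3.95-fold), Mef2c (3.88-fold), Tle4 (3.22-fold) and Bcl11a (2.81-fold). Higher in midbrain were Tshz2 (3.23-fold), Npas1 (2.42-fold), Zfhx3 (2.15-fold), Nr2f2 (1.998-fold) and Nr2f1 (1.65-fold). Nr2f1 differed by 0.47 without midbrain replicate 1, in place of 0.72, and with probe sets averaged Six3, at -1.50, differed by -0.63 and Bcl11a by -0.90. Hox genes mark the hindbrain and spinal cord. Of 16 on the array 13 were below the filter value in both regions, and the 3 tested, Hoxa3, Hoxa5 and Hoxa7, did not pass. The mean over the Hox genes was 4.11, 4.35 and 4.38 on the midbrain arrays and 4.32, 4.17 and 4.27 on the striatum arrays.

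All 5 tested genes of serotonergic neurons were higher in midbrain, which contains the dorsal raphe, and 3 others on the array were below the filter value in both regions. Tph2 and Slc6a4 passed the filter only through midbrain, and with a filter on the mean over all 6 arrays 3 members were tested and higher. Tph2, the enzyme of neuronal serotonin synthesis, read 4.59, 5.87 and 6.45 in midbrain and 3.20, 3.21 and 3.01 in striatum. The serotonin transporter gene Slc6a4 read 5.57, 6.42 and 6.73 against 3.90, 4.003 and 3.96. For both genes midbrain replicate 1 was the lowest of the midbrain arrays, and every midbrain array lay above every striatum array. The limits were at least 1.36-fold for Tph2 and 2.06-fold for Slc6a4, and without replicate 1 the fitted differences were 3.02 and 2.62. Htr1a (2.53-fold), the autoreceptor, Maob (1.36-fold) and Crhbp (1.63-fold) were higher too. Of 4 tested genes of noradrenergic neurons 1 was higher in midbrain, Cited1, a transcriptional co-regulator gene, at 6.01, 5.37 and 5.75 against 4.69, 4.49 and 4.59, which passed the filter only through midbrain. The synthesis gene Dbh read 5.36 ± 0.07 against 5.57 ± 0.12, and the transporter gene Slc6a2 5.23 ± 0.17 against 5.44 ± 0.08, neither of which passed, and neither did Pnmt.

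Cholinergic genes split by role. Slc18a3 and Slc5a7, the vesicular acetylcholine and the choline transporter genes, read 4.79, 4.54 and 5.17 and 3.86, 3.75 and 4.03 in midbrain, all below the filter value, and 6.02, 6.10 and 5.98 and 5.18, 5.28 and 5.35 in striatum. The esterases that break acetylcholine down were higher in midbrain, Ache (2.18-fold) and Bche (at least 1.91-fold), and so was the neurokinin receptor gene Tacr3 (2.78-fold). Chat, the synthesis gene, read 4.02, 4.13 and 3.78 against 4.09, 3.86 and 4.14 and was below the filter in both regions. Of the hypothalamic genes 2 of 6 tested were higher in midbrain (33.3%, near the 30.8% of all tested genes), both of which passed the filter only through midbrain. The peptide gene Cartpt, which midbrain neurons also use, read 9.42, 9.20 and 9.26 against 5.20, 4.83 and 5.08, 19.1-fold. Pmch was at least 2.01-fold higher, with midbrain replicate 1 at 7.48, and differed by 0.80 without that array in place of 1.44. It lost its call with robust variances (adjusted p 0.142). Hcrt, at 4.22 ± 0.30 against 4.43 ± 0.17, and Avp, at 4.76 ± 0.21 against 5.12 ± 0.23, were below the filter value, and Oxt, Pomc, Hdc and Trh did not pass. The mean over the 15 hypothalamic genes on the array was 5.004 to 5.12 on the midbrain arrays and 4.62 to 4.72 on the striatum arrays. The part of hypothalamic tissue in the midbrain values was not tested.

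Markers of cortical glutamatergic neurons were compared between the regions, with their level in saline frontal cortex beside them. Slc17a7, the vesicular glutamate transporter of cortical neurons, read 5.76, 5.27 and 6.60 in midbrain and 7.50, 8.04 and 8.61 in striatum, against 10.33, 10.23 and 10.34 in saline frontal cortex. The striatum arrays thus lay between the other regions. Neurod6 and Tbr1, 2 defining genes of these neurons, were below the filter value in both regions, at 3.04 ± 0.31 and 4.56 ± 0.62 for Neurod6 and 3.02 ± 0.22 and 4.31 ± 0.25 for Tbr1, and read 7.95 ± 0.22 and 6.83 ± 0.25 in cortex (SD, n = 3). Neurod2 was 1.57-fold lower in midbrain (6.32 ± 0.32 against 6.97 ± 0.20), and 8.71 ± 0.06 in cortex, with a difference of -0.36 when its probe sets were averaged. Of 19 tested members 12 were lower in midbrain and 4 higher (63.2% and 21.1%, against 22.5% and 30.8% of all tested genes). Their median difference was -0.51. The largest were Crym (at least 24.045-fold), Egr3 (at least 19.2-fold), Camk2a (6.08-fold) and Nrgn (5.5-fold), which striatal neurons express as well. Lamp5, at -1.42, lost its call with robust variances (adjusted p 0.078). Higher in midbrain were Nrn1 (5.86-fold), Rasgrf2 (3.48-fold) and Neurod1 (at least 1.21-fold). The peptide gene Cck read 9.32 ± 0.26 against 9.28 ± 0.37 and did not pass. The mean over the 22 genes on the array was 6.58 to 6.85 on the midbrain arrays and 7.49 to 7.87 on the striatum arrays, and the part of cortical tissue in the striatal values was not tested.

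Both regions are rich in GABAergic neurons, and the genes of GABA synthesis and packaging differed by little. Gad1 read 10.995, 10.81 and 10.71 against 11.18, 11.20 and 11.16, 1.27-fold lower in midbrain, with Gad2 (1.33-fold) and the vesicular transporter gene Slc32a1 (1.49-fold) close to it. Uptake differed far more: Slc6a11, the GABA transporter GAT-3 of astrocytes, read 10.44, 10.26 and 10.51 against 6.93, 7.29 and 7.39, 9.18-fold higher in midbrain. Its difference was 1.57 over all its probe sets. Interneuron genes were opposed. Pvalb, a calcium-binding protein gene of fast-spiking cells, read 10.64, 11.07 and 11.19 against 8.08, 8.88 and 8.68, 5.34-fold higher in midbrain, while Calb1 (3.19-fold), Reln (2.75-fold), Sst (1.83-fold) and Npy (4.34-fold) were lower. Nos1, the neuronal nitric oxide synthase gene, read 8.004 ± 0.26 against 7.99 ± 0.04 and did not pass. With probe sets averaged Reln differed by -0.94 and Slc32a1 by -0.33. In all 8 of 19 tested members were higher and 10 lower (42.1% and 52.6%, against 30.8% and 22.5% of all tested genes). The largest measured difference among them was that of Sncg, at least 7.12-fold higher in midbrain, given above.

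Glycine, the inhibitory transmitter of brainstem and spinal cord, had 6 of 9 tested genes higher in midbrain (66.7%, against 30.8% of all tested genes). Of the 9, 3 passed the filter only through midbrain, and of the 6 above it in both regions 3 were higher and 1 lower. The receptor subunit genes Glra3 and Glra1 read 7.22, 6.87 and 6.90 and 5.60, 5.21 and 6.35 in midbrain and 3.62, 3.85 and 3.95 and 3.35, 3.28 and 3.31 in striatum, all striatum arrays below the filter value. Glra2 (1.86-fold) and Glrb (1.6-fold) were higher by less, and so was Slc6a9, the glial glycine transporter gene (2.91-fold). The neuronal transporter gene Slc6a5 read 4.72, 7.55 and 7.97 against 4.09, 4.10 and 4.01. Midbrain replicate 1 lay within 1 log2 unit of striatum and the others far above it. Its difference of 2.68 was 3.70 without that array, and with robust variances it lost its call (adjusted p 0.0985). Gldc, which degrades glycine in glia, was 3.51-fold lower in midbrain, and the receptor anchor gene Gphn read 9.02 ± 0.20 against 9.08 ± 0.05 without passing. When probe sets were averaged Glra3 differed by 1.88 and Slc6a5 by 1.62.

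Among neuropeptide precursors 10 of 24 tested were higher in midbrain and 8 lower (41.7% and 33.3%, against 30.8% and 22.5% of all tested genes). Of the 24, 5 passed the filter only through midbrain and 2 only through striatum. Of the 17 above it in both regions 5 were higher and 7 lower. Adcyap1, the precursor of PACAP, read 7.76, 7.31 and 7.19 against 4.75, 5.06 and 4.60, at least 4.7-fold. Pnoc, the nociceptin precursor, read 7.99, 7.93 and 8.10 against 5.20, 5.10 and 5.50, 6.67-fold. Grp, a bombesin-like peptide gene, was at least 2.39-fold higher. The granin gene Chga was 2.57-fold higher and Scg2 1.53-fold, while Vgf (1.49-fold) was lower and Chgb read 10.89 ± 0.04 against 10.82 ± 0.03. Precursors lower in midbrain were Penk (15.3-fold), Pdyn (5.63-fold), Tac1 (4.89-fold), Npy (4.34-fold), Nucb2 (2.3-fold), Sst (1.83-fold) and Cort (1.62-fold). Nts, the neurotensin precursor, was at 6.69 ± 0.60 and 6.77 ± 0.25 and did not pass.

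Receptors for the monoamines were divided between the regions. The dopamine receptor genes Drd1 and Drd2 were lower in midbrain, as given above, and Drd3 and Drd4 were below the filter in both. Of the serotonin receptor genes Htr1b (3.96-fold) and Htr1d (3.15-fold) were lower in midbrain and Htr1a (2.53-fold), Htr7 (2.29-fold) and Htr2c (1.97-fold) higher. Htr1b, which inhibits transmitter release, read 7.18, 7.10 and 7.23 against 9.02, 9.10 and 9.34, and Htr2c, which excites through phospholipase C, read 9.97, 9.49 and 9.54 against 8.48, 8.76 and 8.81. The adrenergic receptor gene Adra2c was 4.5-fold lower (-1.22 on the log2 scale with probe sets averaged). The histamine receptor genes were opposed, with Hrh3 (2.91-fold) lower and Hrh1 (1.86-fold) higher. Maoa and Maob, the monoamine oxidases, were 1.69-fold and 1.36-fold higher in midbrain. Of the acetylcholine receptors the muscarinic gene Chrm1 read 5.09, 6.13 and 5.53 against 9.48, 9.48 and 9.50, 14.999-fold lower, and the nicotinic genes Chrna4 (3.56-fold), Chrna6 (3.07-fold) and Chrna7 (1.33-fold) were higher. Chrna4 read 7.74, 7.37 and 7.34 against 5.45, 5.60 and 5.91, with no overlap, and Chrna7 differed by 0.26 with probe sets averaged. Of the opioid and cannabinoid genes Cnr1, the receptor that spiny neurons use presynaptically, read 8.74, 8.40 and 8.64 against 11.05, 10.85 and 10.75, 4.88-fold lower. Oprk1 (2.01-fold), Dagla (1.86-fold) and Mgll (1.98-fold) were lower with it. Oprl1, the nociceptin receptor gene, read 9.18, 8.87 and 9.09 against 7.03, 7.25 and 7.23, 3.67-fold higher, alongside Napepld (at least 2.46-fold) and Faah (1.47-fold). Oprm1, the mu opioid receptor gene, was below the filter value, at 5.15 ± 0.50 and 5.15 ± 0.42.

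Ionotropic glutamate receptor genes were mostly lower in midbrain, 9 of 14 tested, and the 5 others were higher. The lower share was 64.3%, against 22.5% of all tested genes. The higher share, 35.7%, was near the 30.8% of all tested genes. AMPA receptor subunits divided by gene. Gria1 (1.81-fold), Gria2 (2.11-fold) and Gria3 (1.94-fold) were lower and Gria4, which confers fast kinetics, was 1.81-fold higher (9.65, 9.46 and 9.71 against 8.67, 8.82 and 8.75). NMDA receptor subunits did likewise: Grin2b read 6.82, 6.34 and 5.93 against 8.05, 8.44 and 8.36, 3.79-fold lower, and Grin3a (3.48-fold) and Grin2d (1.93-fold) were higher. Kainate receptor genes lower in midbrain were Grik2 (2.65-fold), Grik5 (2.5-fold) and Grik3 (at least 1.5-fold), and Grik1 was at least 1.43-fold higher. Of the metabotropic receptors Grm5 (3.05-fold), Grm3 (1.81-fold), Grm4 (1.5-fold) and Grm7 (1.36-fold) were lower and Grm2 (1.84-fold) and Grm8 (1.56-fold) higher. Among GABA receptor subunits Gabrd, the extrasynaptic delta subunit, read 6.83, 5.07 and 6.24 against 9.99, 10.13 and 9.90, 15.6-fold lower, and its usual striatal partner gene Gabra4 read 8.78, 7.15 and 7.43 against 10.12, 10.21 and 10.20, 5.25-fold. Gabrg3 (2.62-fold) and Gabra2 (1.86-fold) were lower with them, and Gabra3 (2.74-fold), Gabrg1 (2.16-fold), Gabrb2 (1.46-fold) and Gabra5 (1.44-fold) were higher. Averaged over probe sets Gabrd differed by -1.99, Grin2d by 0.63 and Grik3 by -0.73.

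Voltage-gated sodium and calcium channel genes were lower in midbrain in 16 of 25 tested, with 3 higher. The lower share was 64% and the higher 12%, against 22.5% and 30.8% of all tested genes. Cacna2d3, an auxiliary subunit, read 8.32, 7.95 and 8.14 against 10.79, 10.79 and 10.75, 6.23-fold lower, and Scn4b, which shapes resurgent sodium current, was 4.95-fold lower. Cacng3 (4.37-fold), Cacng4 (3.7-fold), Cacnb1 (3.57-fold), Cacna1h (3.48-fold) and Cacna1e (2.8-fold) followed. The exceptions were Cacna1g, a T-type calcium channel of thalamic and midbrain neurons, at 8.86, 8.21 and 8.67 against 6.03, 6.48 and 6.90, 4.31-fold higher, with Cacng5 (2.66-fold) and Scn1a (2.51-fold). Cacna1d, a calcium channel gene of pacemaking nigral neurons, read 7.21 ± 0.12 against 7.30 ± 0.14 and did not pass. Another, less bright probe set of Cacna1d read 6.01 against 6.79, a difference of -0.78 (limma, unadjusted p 1.38e-05). With probe sets averaged Cacna1h differed by -1.03.

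Potassium and HCN channel genes went both ways, 21 of 44 tested higher in midbrain and 19 lower (47.7% and 43.2%, against 30.8% and 22.5% of all tested genes). Channels of fast-spiking neurons of the Kv3 family were higher: Kcnc2 (6.001-fold), Kcnc4 (4.17-fold) and Kcnc1 (2.5-fold). Kcnc2 read 9.46, 8.70 and 8.82 against 5.82, 6.67 and 6.75. The modulatory subunit genes Kcng4, at 7.24, 7.48 and 7.76 against 4.48, 3.73 and 4.21, and Kcnab3, at 8.16, 8.69 and 8.80 against 5.81, 5.84 and 5.86, were higher too, along with Kcnip1 (4.52-fold) and Kcnh2 (3.22-fold). Lower in midbrain was Kcnj4, the inward rectifier of spiny neurons, at 4.76, 4.96 and 5.33 against 9.23, 9.35 and 9.18, 18.8-fold. Kcnip2, an auxiliary subunit of A-type channels, read 6.86, 7.54 and 7.77 against 11.16, 11.09 and 11.14, 13.3-fold lower. Kcna5 (at least 5.89-fold), Kcnv1 (at least 4.41-fold), Kcnh3 (6.5-fold), Kcnf1 (6.03-fold), Kcnab1 (5.1-fold) and Kcnq5 (5.03-fold) were lower as well. The interacting proteins of A-type channels were thus split between the regions, Kcnip1 and Kcnip4 (1.77-fold) higher and Kcnip2 and Kcnip3 (1.5-fold) lower. Kcnj6, the GIRK subunit gene of dopamine neurons, read 5.01 ± 0.08 against 4.88 ± 0.16 and was not tested. When probe sets were averaged Kcnc1 differed by 0.60, Kcnip1 by 1.29 and Kcnh3 by -1.56.

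Genes of neurofilaments and the axonal cytoskeleton were higher in midbrain in 16 of 23 tested, and 2 were lower. The shares were 69.6% and 8.70%, against 30.8% and 22.5% of all tested genes. The largest measured difference was that of Sncg (at least 7.12-fold higher), which is also in the dopamine neuron list. Nefh, the heavy neurofilament chain of large axons, read 10.13, 10.40 and 10.28 against 7.27, 7.41 and 7.44, 7.45-fold. The medium and light chains and alpha-internexin were higher by less, Nefm (2.004-fold), Nefl (1.8-fold) and Ina (1.83-fold). Stathmin genes were higher as well, Stmn2 (2.71-fold), Stmn3 (1.6-fold) and Stmn1 (1.55-fold), except Stmn4, at 10.81 ± 0.10 against 10.91 ± 0.06. Sptbn4, a spectrin of axon initial segments, was 1.55-fold lower in midbrain. Map2, the dendritic microtubule protein gene, read 11.30 ± 0.15 against 11.24 ± 0.12 and did not pass. Synaptic vesicle genes had no common direction, with 14 higher, 14 lower and 6 not passing. Each direction held 41.2% of those tested, against 30.8% higher and 22.5% lower of all tested genes. Vamp1, a vesicle SNARE gene, read 11.96, 11.94 and 11.999 against 8.57, 8.83 and 8.79, 9.41-fold higher, and the calcium sensor gene Syt2 was 4.83-fold higher. Their relatives Vamp2 (1.46-fold) and Syt1 (1.44-fold) were lower. Cplx1 and Cplx2, complexins that clamp release, were opposed, 1.5-fold higher and 3.25-fold lower. Rims3 (3.3-fold) and Syt13 (2.83-fold) were higher, and Syt6 (3.93-fold), Doc2b (3.37-fold), Syt5 (2.6-fold) and Rab3b (2.49-fold) lower. Snap25 and Syn1, general markers of nerve terminals, read 12.38 ± 0.16 against 12.20 ± 0.04 and 10.46 ± 0.06 against 10.47 ± 0.05. With probe sets averaged Syt2 differed by 1.26.

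Genes that neuronal activity induces were lower in midbrain in 17 of 23 tested, against a background of 22.5%, and 4 were higher (17.4%, against 30.8%). Of the 23, 6 passed the filter only through striatum, and of the 17 above it in both regions 11 were lower and 4 higher. Egr3 read 4.41, 4.47 and 4.66 against 9.39, 9.45 and 9.53, at least 19.2-fold, and Egr2 3.94, 3.74 and 4.35 against 6.39, 7.43 and 7.49, at least 3.75-fold. Homer1, a postsynaptic scaffold gene, read 8.54, 8.29 and 8.77 against 11.10, 11.05 and 11.04, 5.78-fold lower. Egr1 (4.86-fold), Junb (4.77-fold), Nr4a1 (4.75-fold), Arc (4.46-fold) and Nr4a3 (3.93-fold) were lower too. Bdnf, the neurotrophin gene, went the other way, at 7.65, 7.26 and 7.68 against 4.93, 5.39 and 6.14, 4.11-fold higher in midbrain. Fos read 8.54, 8.82 and 9.35 against 7.98, 8.75 and 8.26, so that the groups overlapped. It was called higher at 0.57 and lost the call without midbrain replicate 3 (0.34, adjusted p 0.0751), with robust estimation and with all 18 arrays in the fit (adjusted p 0.0518 and 0.315). When probe sets were averaged Egr3 differed by -2.79, Nr4a3 by -0.78 and Bdnf by 1.33.

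Growth factor genes with a part in dopamine neuron survival were placed on opposite sides. Gdnf, the ligand of Ret made in striatum, read 3.50, 4.03 and 4.28 against 5.33, 5.13 and 5.41, near the filter value in striatum, while its receptor gene Ret and the co-receptor gene Gfra2 (3.43-fold) were higher in midbrain. Gfra1, the preferred co-receptor, read 8.03 ± 0.13 against 7.97 ± 0.06 and did not pass. Igfbp2 (5.67-fold), Igf1 (3.9-fold) and Fgf1 (2.75-fold) were higher in midbrain, and Tgfa (4.55-fold), Igfbp4 (2.93-fold) and Fgf14 (2.36-fold) lower. Of 15 tested genes of the retinoid list 3 were higher in midbrain and 7 lower (20% and 46.7%, against 30.8% and 22.5% of all tested genes). The 7 include Crym (at least 24.045-fold lower), which is also counted in the cortical list. Aldh1a1 and Aldh1a2 (at least 1.76-fold), which make retinoic acid, were higher, and so was the receptor gene Rxra, at 0.37, a call lost without striatum replicate 3 (0.32) and with probe sets averaged (0.13). The receptor genes Rarb (13.4-fold), Rxrg (19.6-fold), Rarg (1.52-fold) and Rxrb (1.42-fold) were lower, as was Rbp4 (4.24-fold), the retinol carrier. Rara and Rdh10 did not pass. With probe sets averaged Gfra2 differed by 1.02.

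Axon guidance genes were divided, 17 of 41 tested higher in midbrain and 15 lower (41.5% and 36.6%, against 30.8% and 22.5% of all tested genes). Plxnd1, a semaphorin receptor gene, read 5.63, 5.10 and 5.88 against 8.66, 8.85 and 8.62, 9.03-fold lower. The ligand gene Sema3a read 5.44, 5.27 and 6.28 against 8.03, 8.45 and 8.27, 6.000-fold lower, and Efnb2 (4.48-fold), Epha7 (2.84-fold), Epha4 (2.47-fold) and Slit3 (2.68-fold) were lower as well. Higher in midbrain were Unc5d (3.37-fold), Plxna1 (2.79-fold), Sema5a (2.69-fold), Slit1 (2.58-fold), Slit2 (2.57-fold) and Ntn1 (2.11-fold). Dcc, the netrin receptor gene, was 1.9-fold lower where its ligand gene Ntn1 was higher. Cadherin genes counted 10 higher and 6 lower of 21 (47.6% and 28.6%, against 30.8% and 22.5% of all tested genes). Pcdh19 (2.95-fold), Pcdh18 (2.36-fold) and Cdh20 (2.29-fold) were higher in midbrain, and Cdh9 (3.63-fold) and Cdh7 (2.24-fold) lower. Cdh2, the general neural cadherin gene, read 8.92 ± 0.34 against 8.68 ± 0.08. When probe sets were averaged Sema3a differed by -1.51, Slit1 by 0.72, Sema5a by 0.82 and Cdh7 by -0.53.

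**Figure D4:**
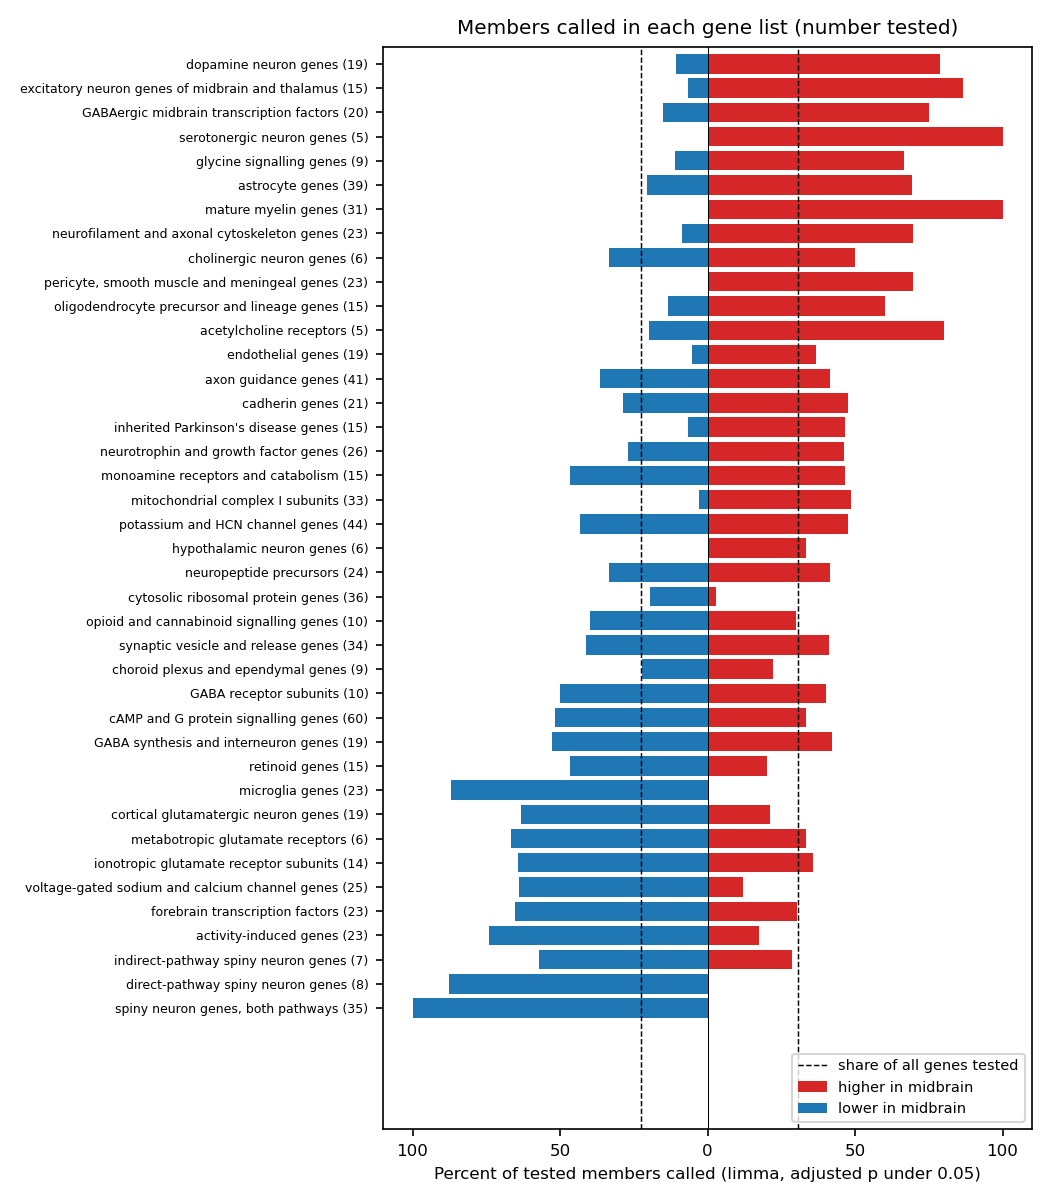
Percent of the tested members of each gene list that were called higher (red, to the right) or lower (blue, to the left) in saline midbrain, with the number tested in brackets, for lists of 5 or more tested members. Dashed lines mark the shares over all tested genes, 30.8% higher and 22.5% lower. All mature myelin genes lie to the right, all spiny neuron genes of both pathways to the left, and many signalling and channel lists are divided.

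All 31 tested genes of mature myelin were higher in midbrain, where the background was 30.8%, and on each of them the midbrain arrays lay above the striatum arrays. The differences were moderate, with a median of 0.70 and a range of 0.18 to 1.59. Mag, an adhesion protein of myelin, read 10.80, 10.88 and 10.82 against 10.19, 10.16 and 9.98, 1.65-fold, with an adjusted p of 9.17e-08. Mog, a protein of the outer sheath, read 9.22, 9.05 and 9.16 against 8.21, 8.34 and 8.23, 1.84-fold. The steepest were Klk6 (3.02-fold), Nkx6-2 (2.27-fold), Ppp1r14a (2.14-fold), Gjb1 (2.13-fold) and Aspa (2.1-fold). Smaller differences were found for the basic protein gene Mbp, which read 13.59, 13.38 and 13.39 against 13.24, 13.30 and 13.27, and Cnp (1.21-fold), Mobp (1.33-fold) and Mal (1.26-fold) were close to it. Mbp, at 0.18, was 0.11 without midbrain replicate 1. It lost its call without any 1 of the striatum arrays (0.17, 0.20 and 0.18) and with its probe sets averaged (0.02). Genes of the earlier oligodendrocyte lineage were less uniform, 9 of 15 higher and 2 lower (60% and 13.3%, against 30.8% and 22.5% of all tested genes). Olig2 (1.75-fold), Olig1 (1.63-fold), Lhfpl3 (2.22-fold) and Sox10 (1.39-fold) were higher, Sox8 was 1.67-fold lower, and the precursor genes Cspg4 and Gpr17 read 6.14 ± 0.07 against 6.15 ± 0.24 and 7.59 ± 0.12 against 7.78 ± 0.02. Pdgfra, at 0.35, was called higher with overlapping groups and lost the call without midbrain replicate 1 (0.27) or 3 (0.33), without striatum replicate 1 (0.27) or 3 (0.33), and with probe sets averaged (0.21).

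Astrocyte genes were higher in midbrain in 27 of 39 tested and lower in 8, and the lower share, 20.5%, was near the 22.5% of all tested genes. Gfap, the astrocytic intermediate filament gene, read 9.31, 9.28 and 9.70 against 7.37, 7.74 and 7.52, 3.69-fold, with an adjusted p of 1.04e-13. Aqp4, the water channel of astrocytic endfeet, read 10.996, 10.88 and 11.04 against 9.01, 9.22 and 9.23, 3.53-fold. Agt, the angiotensinogen gene, read 10.52, 10.24 and 10.56 against 6.73, 7.25 and 7.14, 10.6-fold, the largest difference of the list. Itih3 (6.37-fold), Sparc (5.41-fold), Etnppl (4.7-fold), Kcnj16 (4.15-fold), Slc14a1 (3.21-fold) and Gjb6 (3.15-fold) were higher too. The glutamate transporter genes, which define astrocytes as much as Gfap does, went the other way: Slc1a2 read 12.09, 11.84 and 11.79 against 12.31, 12.31 and 12.43, 1.36-fold lower, and Slc1a3 9.40, 8.94 and 9.52 against 9.87, 9.98 and 9.97, 1.57-fold lower. The secreted protein genes Mfge8 (1.65-fold) and Thbs4 (at least 1.79-fold) and the transcription factor gene Gli3 (1.82-fold) were lower with them. Apoe, Clu and Sox9 read 12.25 ± 0.07, 12.44 ± 0.14 and 6.92 ± 0.09 in midbrain and 12.11 ± 0.05, 12.30 ± 0.00 and 6.76 ± 0.06 in striatum and did not pass. Aldh1l1, a pan-astrocytic enzyme gene, was 1.49-fold higher, and with probe sets averaged it differed by 0.34 and Sparc by 1.48.

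**Figure D5:**
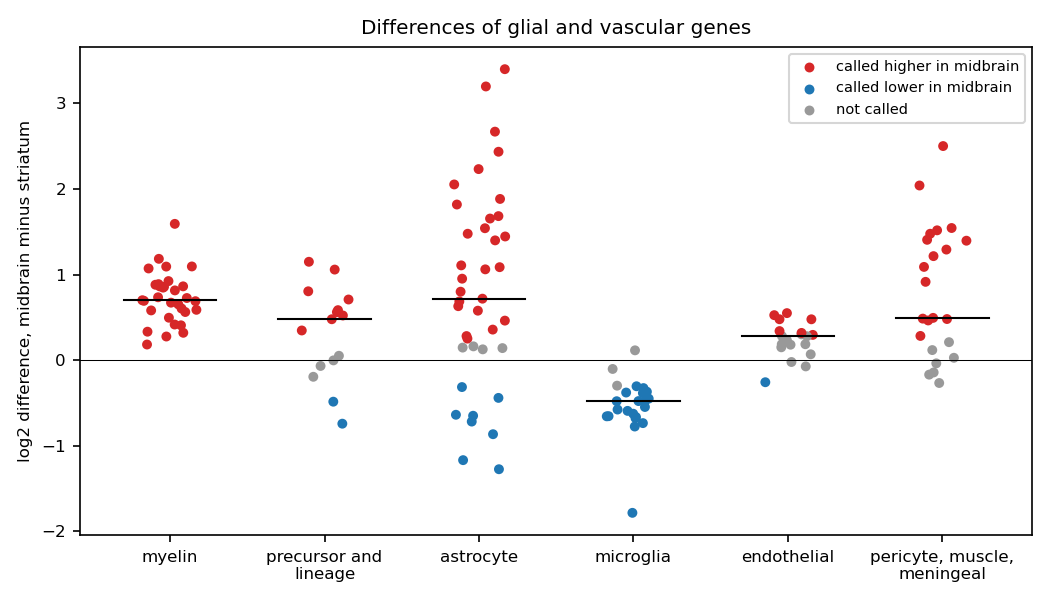
Differences in log2 expression, saline midbrain minus saline striatum, of the tested genes of 6 glial and vascular lists, with a bar at each median. Points are red where called higher in midbrain, blue where called lower and grey where not called. The myelin genes lie between 0.18 and 1.59, the astrocyte genes spread to both sides, and all but 1 of the microglia genes lie below 0.

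Microglia genes leaned the other way from myelin, 20 of 23 tested lower in midbrain and 0 higher, where 22.5% of all tested genes were lower. The size was small and even, with a median of -0.48. Cx3cr1, the fractalkine receptor gene, read 8.51, 8.10 and 8.41 against 8.83, 8.85 and 8.76, 1.39-fold. P2ry12, the purinergic receptor gene of resting microglia, read 7.63, 7.14 and 7.13 against 8.01, 7.998 and 7.89, 1.59-fold, and Tmem119 6.85, 6.67 and 6.93 against 7.36, 7.39 and 7.35. Csf1r (1.49-fold), Aif1 (1.57-fold), Fcrls (1.71-fold), Trem2 (1.67-fold) and Siglech (1.6-fold) were lower as well. The single large difference was Cd68, a lysosomal protein gene, at 5.85, 5.52 and 6.02 against 7.55, 7.72 and 7.47, 3.45-fold lower. Ctss, Fcer1g and Sall1 did not pass, with differences of -0.10, -0.30 and 0.11. The calls of C1qa, Tyrobp and Cd53 were lost without striatum replicate 2, at -0.27, -0.34 and -0.35, and that of Cd53 also without striatum replicate 3 (-0.37). Ly86 lost its call without midbrain replicate 3 (-0.29) or any 1 striatum array (-0.29, -0.29 and -0.33), and C1qb moved from -0.38 to -0.25 without midbrain replicate 2. With probe sets averaged Trem2 differed by -0.43.

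Endothelial genes differed little, with a median of 0.28: 7 of 19 tested were higher, 1 was lower and 11 did not pass. The higher share, 36.8%, was near the 30.8% of all tested genes. Cldn5, the tight junction gene of the blood-brain barrier, read 9.22, 8.89 and 9.09 against 9.08, 8.90 and 8.65, and Pecam1 6.43, 6.28 and 6.57 against 6.38, 6.19 and 6.26, neither called. Emcn (1.44-fold), Abcg2 (1.46-fold) and Slc2a1 (1.39-fold) were higher. The count of higher genes was 4 without midbrain replicate 3 or without striatum replicate 3 and 14 with arrays weighted by their quality as limma estimates it. Genes of fibroblasts and meninges were higher in midbrain. They belong to the list of pericyte, smooth muscle and meningeal genes, in which 16 of 23 tested members were higher and 0 lower. The higher share was 69.6%, against 30.8% of all tested genes. Of the 23, 5 passed the filter only through midbrain, and of the 18 above it in both regions 11 were higher and 0 lower. Igfbp2 read 8.41, 8.27 and 8.72 against 5.62, 6.43 and 5.84, 5.67-fold, and Dcn, a collagen-binding proteoglycan gene, 7.78, 7.71 and 8.10 against 5.70, 5.87 and 5.90, 4.12-fold. Slc6a20a (2.92-fold), Slc6a13 (2.86-fold), Slc13a4 (at least 2.45-fold), Ptgds (2.65-fold), Ogn (2.63-fold) and Col1a2 (2.45-fold) were higher too. Of the genes of contractile and mural cells the channel subunit gene Abcc9 (1.39-fold) was higher too, and Vtn was called higher at 0.28 but lost its call without midbrain replicate 3 (0.15) or any 1 striatum array (0.27, 0.31 and 0.27) and with probe sets averaged (0.24), while arrays weighted by quality gave 0.45. Acta2 read 8.08 ± 0.22 against 8.25 ± 0.02, Rgs5 9.82 ± 0.11 against 9.70 ± 0.05 and Pdgfrb 6.78 ± 0.12 against 6.93 ± 0.09, none of which passed, like Kcnj8, Tagln, Myh11 and Myl9. Dcn differed by 0.99 with probe sets averaged. Averaged, the 27 genes on the array read 6.86 to 7.04 on the midbrain arrays and 6.18 to 6.25 on the striatum arrays. The part of meningeal tissue in these values was not tested.

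Ttr, the transthyretin gene of the choroid plexus, read 8.18, 7.53 and 7.22 in midbrain and 10.14, 10.61 and 10.20 in striatum, 6.37-fold lower, against 5.08 ± 1.03 in saline frontal cortex. The choroid genes Folr1 and Kl were below the filter value in both regions, at 4.11 ± 0.25 and 4.14 ± 0.05 in midbrain and 4.22 ± 0.08 and 4.01 ± 0.10 in striatum, and Clic6 was 2.13-fold lower in midbrain (-1.77 on the log2 scale with probe sets averaged). In all 2 of 9 tested members were higher and 2 lower (22.2% each, against 30.8% and 22.5% of all tested genes). Foxj1, the regulator of ciliated cells, was called higher at 0.37 and lost its call without midbrain replicate 1 (0.24), without any 1 striatum array (0.31, 0.39 and 0.39) and without the filter, and Otx2 was the other. Ciliary genes of ependyma, Rsph1, Ccdc153, Dynlrb2 and Cfap126, did not pass. The mean over the 22 genes of the list on the array was 4.64 to 5.05 on the midbrain arrays and 4.82 to 4.87 on the striatum arrays, and the part of choroid plexus in the striatal values was not tested. Haemoglobin alpha genes read 3.34 ± 0.06 and 3.34 ± 0.13 for Hba-a1 and 4.06 ± 0.07 and 4.11 ± 0.19 for Hba-a2, all below the filter value.

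Of 15 tested genes of inherited Parkinson's disease 7 were higher in midbrain, 1 was lower and 7 did not pass. The higher share was 46.7% and the lower 6.67%, against 30.8% and 22.5% of all tested genes. The lower one was Lrrk2, a kinase gene that spiny neurons express, at 6.15, 5.73 and 6.29 against 8.88, 8.88 and 8.88, 7.07-fold, with an adjusted p of 3.22e-17. Htra2 (1.43-fold), Atp13a2 (1.38-fold), Dnajc6 (1.34-fold) and Fbxo7 (1.31-fold) were higher. Pink1, a kinase gene of mitochondrial quality control, read 10.77 ± 0.10 against 10.57 ± 0.06, and Uchl1, a neuronal deubiquitinase gene, 11.31 ± 0.12 against 11.26 ± 0.02, without passing. Park7, at 0.26, lost its call without midbrain replicate 3 (0.21) or without striatum replicate 1 or 3 (0.25 in each case). Subunits of mitochondrial complex I, the enzyme that the active form of MPTP inhibits, were higher in midbrain in 16 of 33 tested and lower in 1 (48.5% and 3.03%, against 30.8% and 22.5% of all tested genes). None differed by 2-fold, and the range was -0.25 to 0.57, with a median of 0.19. Ndufb5 (1.49-fold), Ndufa6 (1.37-fold) and Ndufc2 (1.35-fold) were the largest, and Ndufa1 was 1.19-fold lower, a call lost without striatum replicate 1 (-0.24). Cytosolic ribosomal protein genes had a median of 0.01, with 1 of 36 higher (2.78%) and 7 lower (19.4%, near the 22.5% of all tested genes). These small counts moved with the setting, from 1 to 6 higher and from 2 to 7 lower.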

How the data were processed

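Total RNA from midbrain and striatum of saline-treated mice was hybridised to Affymetrix mouse arrays, 1 array per sample. The authors deposited log2 expression summaries, produced by RMA according to the submitters' processing notes. The sources used here give no RMA version. As RMA brings the arrays towards 1 distribution, it would hide a shift common to all genes. The deposited values still differed in spread, with interquartile ranges of 3.37 to 3.61. A second quantile normalization gave 7193 called genes in place of 6193. That the scale is log2 was inferred from the range of values, 2.48 to 14.16. Of 45101 probe sets 34958 named 1 gene in the array annotation, 932 named several and 9211 had no listed gene, and only the first kind was used. For 34754 of them the symbol was updated by Entrez ID through RefSeq genes of GRCm38.p6. These gave 18194 genes, 9012 of them with more than 1 probe set, each represented by its brightest probe set, averaged across the 18 arrays.

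Limma 3.58.1 in R 4.3.3 was fitted to the 6 saline arrays with variance moderation along an intensity trend, on 4 residual degrees of freedom (28.7 after moderation), and Benjamini-Hochberg adjustment of p-values ran over 11622 genes. The filter value, the 50th percentile of all values on the 6 arrays (5.19), is not a detection limit. On simulated data with the measured means and spreads of these 11622 genes, the fit recovered 46% of genes changed by 0.5 on the log2 scale, 90% at 1, 98% at 2 and 100% at 4, with 4 false calls among 171. Simulated noise was independent between genes, with 1 pooled spread per gene for both regions. Only 50 genes were changed at each step, far fewer than the 6193 called in the data. The adjustment was therefore stricter in the simulation, and the shares recovered do not carry over to the comparison. Having 3 arrays in each group limits precision.

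The arrays of both regions carry the same replicate numbers. Correlations of same-numbered deviations from the group means were -0.16, -0.24 and 0.06, the labels do not tie a number to a mouse, and the fit has no block. The p-values treat the 6 arrays as independent, although regions of 1 mouse may share variation.

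Members and the 43 gene lists, with 1112 entries of which 998 had a value, were chosen with earlier results of these data known. Some genes, such as Sncg and Crym, stand in several lists and are counted in each. Named genes were the 20 called genes of largest difference in each direction, the defining members of each list, up to 8 called members each way and up to 3 of smallest difference, and all members of lists of 20 or fewer. A protein comparison of peptide precursors was planned and is not used here. Alternatives were other filters, a second quantile normalization, median centring, the mean over probe sets, robust or trend-free variance estimates, weighted arrays, fits with more arrays, the replicate number as a block, and leaving out each array in turn.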

Additional observations from a re-analysis of the deposited data

How the results depend on the processing

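The 6193 called genes were 4495 to 7371 under the other settings that kept all 6 arrays, of which 4495 came from the filter at the 75th percentile, with 7371 genes tested, and 7371 from array weights. With each array left out in turn the count was 5317 to 6804, with 2967 to 4342 genes higher in midbrain and 2191 to 2794 lower. No count of all called genes moved by more than 1.5 times. The replicate block, for arrays that share only a number, left 5446 calls, 3146 higher and 2300 lower, of which 5432 were shared with the fit without it, and as a random effect 5459, with an estimated correlation of -0.317. Of 614 called genes in the lists or among the largest differences 471 were tested in all 19 settings, and 408 of these kept their call in each. Over the settings that tested them, 528 of the 614 kept it. Without some 1 array 67 of them lost it and 0 reversed. Averaging a gene's probe sets moved 96 of them by over 1.5 times, 86 to a smaller value, and turned the sign of Cux2 from -0.37 to 0.41, Pclo from -1.004 to 0.39 and Slc4a4 from 0.28 to -0.43, and of Cacng2, which was not called at -0.18, to 0.24. The calls are thus those of 1 probe set per gene. Genes dim in both regions were not tested, and low signal limits what can be said of genes such as Pitx3.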

Other observations

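Outside the gene lists, 49 named genes differed by 8-fold or more in their measured means, 45 of them lower in midbrain. Where all arrays of 1 region were below 5.19 the lower limit can be under 8-fold, as for Clspn (at least 3.56-fold). The 49 genes were singled out after their values were seen. Icam5, a dendritic adhesion gene of forebrain neurons, read 5.65, 5.12 and 5.85 in midbrain and 9.74, 9.79 and 9.78 in striatum, 18.7-fold lower. Ptk2b, a calcium-activated tyrosine kinase gene, read 6.99, 6.46 and 6.69 against 10.72, 10.85 and 10.84, 16.973-fold lower. Kalrn (10.959-fold), Baiap2 (9.72-fold), Akap5 (9.64-fold) and Wipf3 (10.1-fold) were lower too. Other genes lower in midbrain were the carbonic anhydrase gene Car12 (at least 10.9-fold), the lipase gene Lpl (15.7-fold), the calcium release channel gene Ryr1 (at least 7.11-fold), the circadian transcription factor gene Npas2 (11.7-fold) and the forkhead gene Foxo1 (8.997-fold). Cd4, best known as a co-receptor of T cells, read 4.87, 5.16 and 5.09 in midbrain and 8.21, 8.17 and 7.96 in striatum, at least 7.58-fold, while the T cell receptor gene Cd3e read 5.77 ± 0.23 against 5.83 ± 0.05 and did not pass. Ido1, which degrades tryptophan, read 3.43, 3.42 and 3.61 against 8.87, 8.69 and 8.59, at least 11.5-fold lower.

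Among called genes of the lists or of largest difference, the other probe sets were compared with the one used. They pointed the opposite way in 8 genes, each with both probe sets above the filter value and an unadjusted p under 0.05. One probe set of Slc4a4, a bicarbonate transporter gene of astrocytes, gave -2.62 where the brightest gave 0.28. For Ntrk2, the BDNF receptor gene, the brightest gave -0.51, like others at -0.87, -0.72 and -0.70, while further ones gave 1.003, 0.82 and 0.42. For Mbp other probe sets gave -1.22 and -0.36 against 0.18. Pclo gave 1.11 and 1.05 against -1.004, Kcnc1 -0.92 against 1.32, Cux2 1.34 against -0.37, Rora -0.48 against 1.26 and Pcdh10 0.54 against -0.34. What each probe set matches within its gene was not examined. Of 591 other probe sets of these genes above the filter 566 had the sign of the one used, among them all 22 of the 40 genes of largest difference.

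A few genes varied between arrays more than between regions. Sgk1, a glucocorticoid-induced kinase gene, read 9.06, 10.03 and 11.06 in midbrain and 9.31, 10.20 and 10.71 in striatum, lowest on replicate 1 and highest on replicate 3 in both. Hspa1b, a heat shock gene, read 6.86, 6.16 and 7.65 and 5.70, 5.66 and 7.13. Genes of skeletal muscle were high on striatum replicate 2, and Acta1, at -2.13, differed by -1.43 without that array, Tnni2 by -0.21 in place of -0.90 and Ckm by -0.20 in place of -0.82, and Tnni2 and Ckm were then not called. Pcp2 was higher in midbrain by 2.24, by 1.10 without midbrain replicate 3 and by 3.37 without replicate 1, and without replicate 2, at 2.27, it was not called (adjusted p 0.0538).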
